A study of Mus musculus with 6 samples.

Results

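The genes described are 10 components of the unfolded protein response, the signalling system that adjusts the endoplasmic reticulum (ER) to its load of unfolded protein. They were taken by name (Hspa5, Hsp90b1, Xbp1, Ern1, Ern2, Atf4, Atf6, Ddit3, Dnajb9 and Herpud1) from the 38561 genes counted in each library. Mucosal RNA of the small intestine was sequenced after oligo-dT selection in 6 libraries, 3 pools labelled Rbm47-IKO and 3 control pools, to ask which transcripts differ when the RNA-binding protein RBM47 is deleted from the intestinal epithelium. The Rbm47-IKO mice carried floxed Rbm47 alleles and a constitutive Vil-Cre transgene, in which the villin promoter drives Cre recombinase in intestinal epithelial cells, so that muscle, stromal and immune cells in the same mucosa were not targeted. The controls are called wt in the sample labels and floxed mice without Cre in the study's methods, and they are called wt pools here. All mice were C57BL/6J animals without injury treatment, 8 to 12 weeks old per the labels. Each pool, per the labels, combined RNA of 3 mice of both sexes. The study's methods allow more mice per pool and a wider age range, and state that mice received BrdU shortly before harvest. The spread between pools is therefore a spread between groups of mice.

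In the unfolded protein response, 3 kinds of sensor span the ER membrane. IRE1 (Ern1 and, in mucosal epithelia, Ern2) splices the messenger RNA of Xbp1 and so yields an active transcription factor, ATF6 is cut by Golgi proteases to release its own transcription factor domain, and PERK phosphorylates the initiation factor eIF2α, which slows translation while favouring that of Atf4. The targets of these factors include chaperones, components of ER-associated degradation and, through CHOP (Ddit3), genes of cell death. In the intestine the pathway is best known for secretory cells such as goblet and Paneth cells, whose ER handles large amounts of mucin or antimicrobial protein.

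Each pool held between 31560320 and 38951830 counts, and 16425 genes passed the expression filter of edgeR and were tested. The count of Rbm47, the targeted gene, went against the labels. In CPM, the count scaled by the normalized library size, it stood at 602.7, 624.6 and 619.8 in the Rbm47-IKO pools and at 459.8, 449.9 and 472.1 in the wt pools (log2 fold change 0.42, SE 0.10, edgeR quasi-likelihood adjusted p = 0.0751). Of 12 alternative fits, described below, 2 called Rbm47 higher, and of 6 fits that left out a single pool 0 called it. A count over the whole gene does not resolve the floxed exons, so that a transcript left after deletion cannot be told apart from an intact one, and directions are given for the pools as labelled. Rbm47-IKO pool 3 and wt pool 2 stood apart by smooth muscle transcripts, with 6 muscle genes summing to 3302 and 2803 CPM against 90.7 to 586 CPM in the other pools. The epithelial origin was visible in every pool, since 9 enterocyte genes, Vil1 and Fabp1 among them, summed to 46710 to 50554 CPM in the pools labelled Rbm47-IKO and to 57432 to 64049 CPM in the wt pools. The estimates of the 9 were mixed, 4 positive and 5 negative, with Fabp2 higher in every pool labelled Rbm47-IKO and Apob, Apoa4 and Sis lower. Of all genes tested, 11.7% were higher and 11.6% lower in every pool labelled Rbm47-IKO than in any wt pool. Without Apob the sums of the other 8 enterocyte genes overlapped, at 36083, 40124 and 36847 CPM against 39693, 42529 and 41929 CPM. In such bulk RNA, fewer cells of a type and less RNA per cell cannot be told apart.

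Promoters of 8 of the 10 genes were found in RefSeq (GRCm38.p6) as windows from 250 bases before to 50 bases after the annotated start. They were searched on both strands for the ER stress response element (ERSE, which reads CCAAT, then 9 bases of any kind, then CCACG), the motif that ATF6 and XBP1 are known to use together with NF-Y, for the related ERSE-II (ATTGG, 1 base of any kind, then CCACG), which ends in the same letters, for the core of the unfolded protein response element (TGACGTG) and for an ATF4-type element (TGATGCAA). ERSE was found in 39 of 32851 windows (0.119%), ERSE-II in 12 (0.0365%), the TGACGTG core in 661 (2.01%) and the ATF4-type element in 294 (0.895%). The windows of Hspa5, Hsp90b1 and Herpud1 are printed because they held an ERSE or ERSE-II, with each match to a motif in capitals.
Hspa5 (chr2:34771840-34772139, plus strand): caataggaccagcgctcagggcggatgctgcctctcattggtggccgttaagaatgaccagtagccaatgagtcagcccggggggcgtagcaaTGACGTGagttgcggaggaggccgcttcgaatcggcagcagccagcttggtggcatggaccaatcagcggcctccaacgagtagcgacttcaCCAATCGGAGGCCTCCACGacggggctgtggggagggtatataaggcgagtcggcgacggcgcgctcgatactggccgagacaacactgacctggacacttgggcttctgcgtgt
Hsp90b1 (chr10:86705395-86705694, minus strand): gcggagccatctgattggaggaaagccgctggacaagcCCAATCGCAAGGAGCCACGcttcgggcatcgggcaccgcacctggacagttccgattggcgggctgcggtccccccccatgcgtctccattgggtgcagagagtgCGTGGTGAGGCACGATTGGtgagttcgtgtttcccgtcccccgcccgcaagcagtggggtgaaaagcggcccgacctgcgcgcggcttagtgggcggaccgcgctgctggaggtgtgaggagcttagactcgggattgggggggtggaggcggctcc
Herpud1 (chr8:94386179-94386478, plus strand): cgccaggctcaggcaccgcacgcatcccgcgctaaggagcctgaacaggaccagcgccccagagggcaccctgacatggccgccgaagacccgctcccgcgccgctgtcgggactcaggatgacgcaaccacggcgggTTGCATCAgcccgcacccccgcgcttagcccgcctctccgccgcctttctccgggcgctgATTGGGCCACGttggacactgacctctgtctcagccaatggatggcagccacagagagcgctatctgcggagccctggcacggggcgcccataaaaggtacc
In Hspa5 the capitals mark TGACGTG, with its first base at -157 from the start, and then an ERSE at -65. In Hsp90b1 they mark an ERSE at -212 and another on the opposite strand at -107. In Herpud1 they mark the ATF4-type element on the opposite strand at -112 and the ERSE-II at -52. The windows of Xbp1, Ern1, Atf4, Ddit3 and Dnajb9 held none of these 4 motifs, which says only that those letters were not in these windows. A match is a description of the sequence and not a measured site.

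None of the 10 genes differed between the genotypes by more than the spread between pools. All 10 passed the expression filter, with 634 to 21353 counts per pool. By the edgeR quasi-likelihood test with Benjamini-Hochberg adjustment over all tested genes, 0 of 10 passed an adjusted p of 0.05, against 2.7% of all tested genes. DESeq2 and limma-voom also called 0 of the 10, against 8.39% and 2.62% of the genes they gave an adjusted p, and 0 had an unadjusted edgeR p under 0.05, against 16.8% of all genes tested. For 0 of the 10 were the pools of one genotype separate from those of the other, against 23.3% of all genes tested. The log2 fold change was positive for 5 genes and negative for 5, with a median of 0.0016 beside -0.0059 for all genes tested. The estimates ran from -0.12 for Hsp90b1 to 0.16 for Hspa5, with adjusted p between 0.719 and 0.987. The 95% intervals of all 10 lay between 0.691-fold and 1.43-fold, and hence within 1.5-fold in either direction, while smaller differences could not be told from none.

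**Figure D1:**
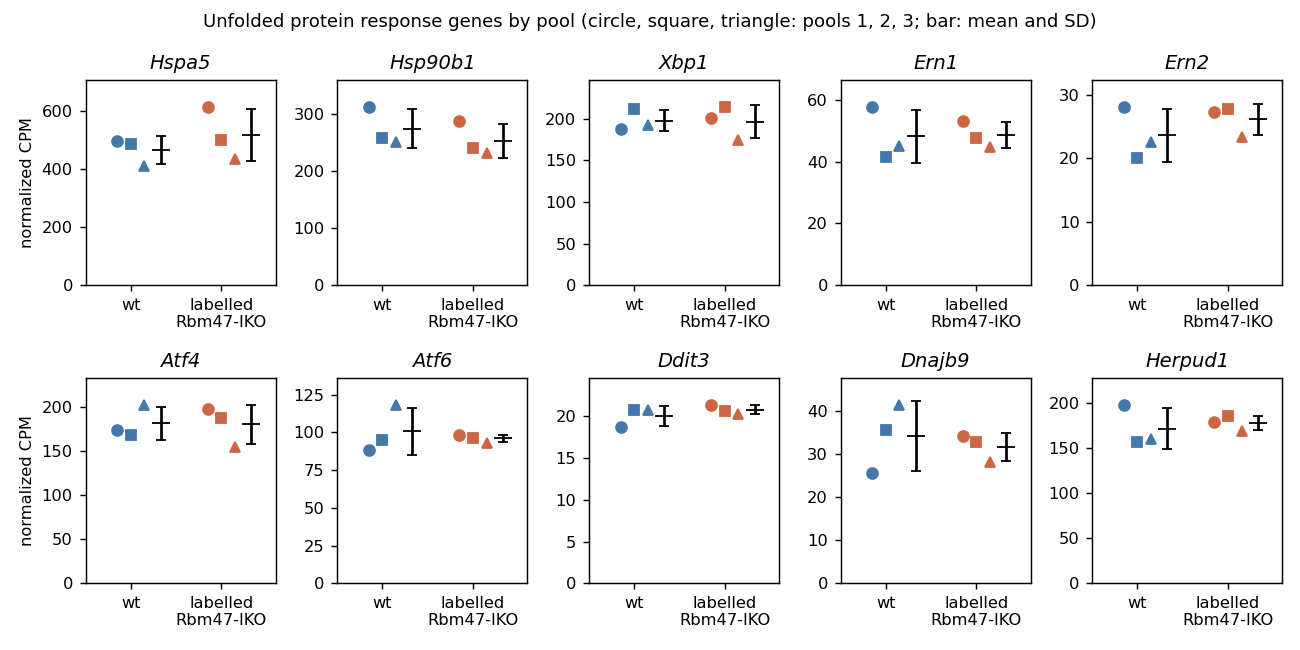
Normalized CPM (vertical axes, each from 0) of the 10 genes in each pool, with wt pools in blue and pools labelled Rbm47-IKO in orange. Symbols mark pools 1 to 3 and the black bars the mean and SD of 3 pools. The pools of the 2 genotypes overlap for all 10 genes.

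**Figure D2:**
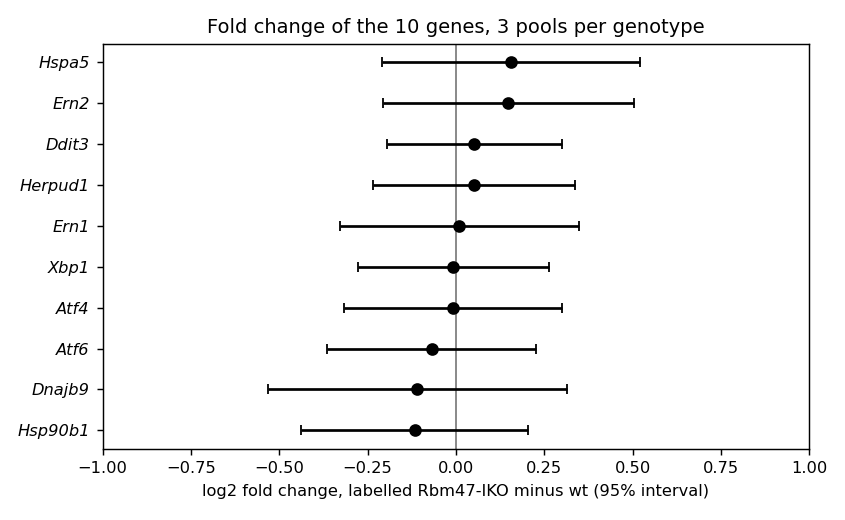
Log2 fold change of each gene in the pools labelled Rbm47-IKO against the wt pools (horizontal axis), with points for the edgeR estimate and bars for its 95% interval. Every interval includes 0, and the outermost bounds are -0.53 for Dnajb9 and 0.52 for Hspa5.

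Among the sensors, Ern1 (ENSMUSG00000020715, chromosome 11, 106394650 to 106487852), which encodes the widely expressed IRE1α, had 53.2, 47.6 and 44.9 CPM in the pools labelled Rbm47-IKO and 57.9, 41.6 and 45.2 CPM in the wt pools. The wt pools held both the highest and the lowest value, and the log2 fold change was 0.010 (SE 0.146, edgeR adjusted p = 0.984). Ern2 (ENSMUSG00000030866, chromosome 7, 122169893 to 122186216) encodes IRE1β, the form restricted to mucosal epithelia. Its levels were 27.4, 27.9 and 23.4 CPM in the pools labelled Rbm47-IKO and 28.2, 20.1 and 22.7 CPM in the wt pools. Again wt pool 1 was highest and wt pool 2 lowest, and the log2 fold change was 0.15 (SE 0.152, edgeR adjusted p = 0.722). Atf6 (ENSMUSG00000026663, chromosome 1, 170704674 to 170867771) had 98.2, 96.6 and 93.3 CPM in the pools labelled Rbm47-IKO, which lay inside the wt range of 88.6, 95.2 and 118.3 CPM. Its log2 fold change was -0.07 (SE 0.127, edgeR adjusted p = 0.869).

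The balance of the 2 IRE1 genes was also compared within each pool, which removes differences in depth and in the total of both. Per kilobase of gene length, Ern2 made up 58.6%, 61.7% and 58.9% of the sum of Ern1 and Ern2 in the pools labelled Rbm47-IKO and 57.2%, 57.0% and 58.0% in the wt pools. Its share was higher in every pool labelled Rbm47-IKO than in any wt pool, by 2.31 percentage points on average (59.7 ± 1.70 against 57.4 ± 0.494, SD, n = 3 each, two-sided exact permutation p = 0.1). That p is the smallest that 3 pools against 3 allow, so the design could not reach 0.05. Taken singly, Ern1 and Ern2 had overlapping pools, while 23.3% of all genes tested had pools that did not overlap. The summed goblet cell markers, given with the chaperones, were also higher in every pool labelled Rbm47-IKO, and their part in the share of Ern2 was not tested.

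Of the transcription factors, Xbp1 (ENSMUSG00000020484, chromosome 11, 5520659 to 5525893) showed levels of 200.6, 214.9 and 174.9 CPM in the pools labelled Rbm47-IKO and 188.3, 212.3 and 192.8 CPM in the wt pools. Both extremes were pools labelled Rbm47-IKO, and the log2 fold change was -0.0069 (SE 0.117, edgeR adjusted p = 0.987). Counts per gene do not separate the spliced from the unspliced Xbp1 transcript, and splicing was not analysed here. Atf4 (ENSMUSG00000042406, chromosome 15, 80255184 to 80257540), whose product is governed mainly at translation, had 198.1, 187.6 and 155.3 CPM in the pools labelled Rbm47-IKO and 173.7, 168.1 and 202.6 CPM in the wt pools. Here the highest value came from wt pool 3 and the lowest from Rbm47-IKO pool 3, and the log2 fold change was -0.0090 (SE 0.133, edgeR adjusted p = 0.985). Ddit3 (ENSMUSG00000025408, chromosome 10, 127290774 to 127296288) encodes CHOP, the factor that links prolonged ER stress to cell death. It was the steadiest of the 10, with 21.3, 20.6 and 20.3 CPM against 18.6, 20.7 and 20.7 CPM in the wt pools, so that the highest pool exceeded the lowest 1.14-fold. Its log2 fold change was 0.05 (SE 0.106, edgeR adjusted p = 0.883). Exons of Ddit3 share 68 bases with the antisense gene Mars, and since the strand setting of the counting is not given in the sources used here, some reads of that stretch could belong to either.

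The 4 target genes did not part the genotypes either. Hspa5 (ENSMUSG00000026864, chromosome 2, 34771970 to 34776531) encodes BiP, the main chaperone of the ER lumen and the protein that holds the sensors inactive. Its levels were 616.8, 502.6 and 435.9 CPM in the pools labelled Rbm47-IKO and 497.8, 488.8 and 410.0 CPM in the wt pools (means 518.4 ± 91.5 and 465.5 ± 48.3, SD, n = 3 each). Rbm47-IKO pool 1 was the highest of the 6, while pool 3 of the same genotype lay below 2 of the wt pools. The log2 fold change of 0.16 (SE 0.157, edgeR adjusted p = 0.719) had a 95% interval from -0.21 to 0.52.

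Hsp90b1 (ENSMUSG00000020048, chromosome 10, 86690209 to 86705509) encodes GRP94, the ER form of HSP90. It went the other way from Hspa5, with 288.1, 240.3 and 231.4 CPM in the pools labelled Rbm47-IKO and 313.7, 257.8 and 251.8 CPM in the wt pools. Both genotypes had their highest value in pool 1, the ranges overlapped, and the log2 fold change was -0.12 (SE 0.138, edgeR adjusted p = 0.774). Exons of Hsp90b1 overlap Gm15344 and the antisense gene 1810014B01Rik, which held 23 to 47 and 19 to 38 counts per pool. Dnajb9 (ENSMUSG00000014905, chromosome 12, 44205897 to 44210068) encodes ERdj4, a BiP cochaperone and a well-known XBP1 target. Its values were 34.2, 32.7 and 28.0 CPM in the pools labelled Rbm47-IKO and 25.5, 35.5 and 41.3 CPM in the wt pools. Its wt pools spanned the widest relative range of the 10, 1.62-fold from lowest to highest, and the log2 fold change was -0.11 (SE 0.182, edgeR adjusted p = 0.851). Herpud1 (ENSMUSG00000031770, chromosome 8, 94386438 to 94395377), a membrane component of ER-associated degradation, had 179.1, 184.6 and 168.5 CPM in the pools labelled Rbm47-IKO and 197.5, 156.0 and 160.1 CPM in the wt pools. Here too wt pools were highest and lowest, with a log2 fold change of 0.05 (SE 0.123, edgeR adjusted p = 0.905).

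Levels were also ordered per kilobase of gene length, in CPM per kb, and the order of the 10 genes by mean was the same in both genotypes. In the wt pools Hspa5 led with a mean level of 132.5 CPM per kb (116.7 to 141.7), followed by Atf4 with 105.3 (97.5 to 117.5), and the ranges of both overlapped slightly. Herpud1, Hsp90b1 and Xbp1 formed a middle group with mean levels of 73.4, 68.1 and 60.9 CPM per kb, and each overlapped its neighbour across pools. Dnajb9 followed at 18.3 CPM per kb (13.7 to 22.2), clear of Xbp1 above it and of Ddit3 below it, which had 11.7 (10.9 to 12.1). Atf6 had 10.9 CPM per kb (9.60 to 12.8) and did not part from Ddit3. The IRE1 genes were lowest, with Ern2 at 7.95 CPM per kb (6.74 to 9.49) and Ern1 at 5.90 (5.08 to 7.09), and their ranges overlapped. The corresponding means in the pools labelled Rbm47-IKO ran from 147.6 CPM per kb for Hspa5 to 5.94 for Ern1.

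The 10 genes varied together among the pools labelled Rbm47-IKO. Within that genotype, pool 3 was the lowest for 10 of 10 genes and pool 1 the highest for 7, whereas across all tested genes pool 3 was the lowest of the 3 for 38.4%. The order was not particular to these genes, since the same pool was the lowest for 23 of 26 chaperones and folding enzymes, 16 of 20 degradation genes, 17 of 23 translocon and export genes, 19 of 28 genes of the PERK and ATF4 arm and 8 of 12 other sensors and processing enzymes, although for 3 of 12 cell death genes. The wt pools showed no such order, since pool 1 was the highest for 5 genes and the lowest for 4. Rbm47-IKO pool 3 was the muscle-rich pool of its genotype. Wt pool 2, with nearly as much muscle RNA, was the lowest wt pool for 4 of the 10, and the part of muscle RNA in the pattern was not tested. Without these 2 pools, a comparison added after the data were seen, 0 of 10 genes were called by the edgeR test, 0 had an unadjusted p under 0.05, and the lowest adjusted p was 0.382. Between genes, the closest patterns over the 6 pools were those of Ern1 and Herpud1, whose log2 CPM around their own means differed by a root mean square of 0.076. Those of Ern2 and Dnajb9 lay farthest apart, at 0.352. Among 7914 tested genes with a mean of at least 10 CPM, the closest to Hspa5 by this measure were Trim27 (0.031), Nol9 (0.037) and Atad3a (0.042).

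**Figure D3:**
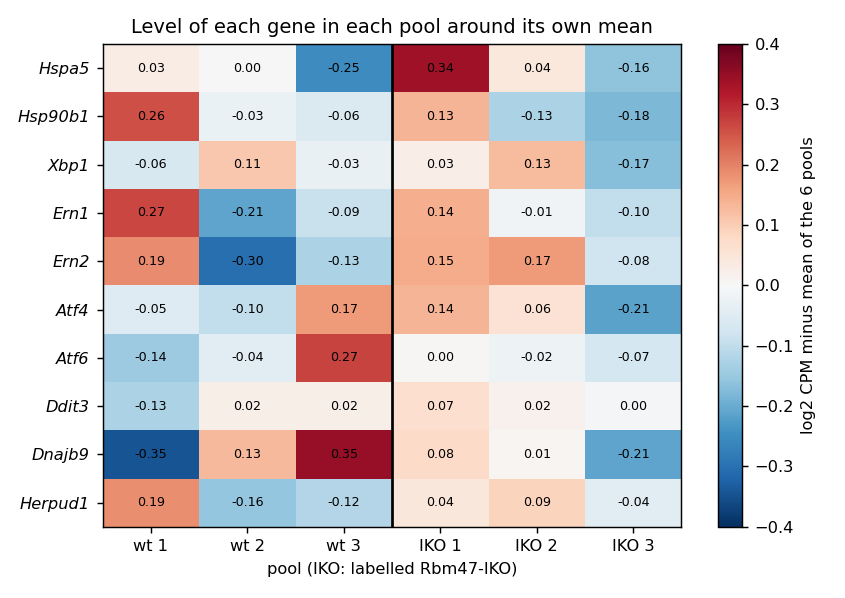
Log2 CPM of each of the 10 genes (rows) in each of the 6 pools (columns), as the difference from the gene's mean over the pools, with red above and blue below it. Rbm47-IKO pool 3 holds the lowest value of its 3 pools in 10 of 10 rows.

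The wider pathway was read through 6 lists of genes that hold none of the 10. In the order given below, the lists held 12, 26, 20, 23, 28 and 12 tested genes. Over these lists 3 genes passed the edgeR adjusted threshold, 2 higher and 1 lower in the pools labelled Rbm47-IKO. Among all tested genes, 2.7% were called, 1.45% higher and 1.25% lower.

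Of 12 other sensors and the enzymes that process them, 1 gene was called, Mbtps2, which encodes the site-2 protease that releases ATF6 and its relatives from the membrane. It fell, with 5.23, 4.86 and 4.99 CPM in the pools labelled Rbm47-IKO against 10.6, 8.25 and 9.17 CPM in the wt pools. Every wt pool was above every pool labelled Rbm47-IKO, and the log2 fold change was -0.89 (SE 0.166, edgeR adjusted p = 0.0393). When single pools were left out the call held only without wt pool 2, with adjusted p between 0.041 and 0.229, and it was lost with a correction for GC content (adjusted p = 0.0686) and without the muscle-rich pools (0.058). The log2 fold change was still -0.70 and -0.98 in these 2 fits. Mbtps2 lies on the X chromosome, and the sex mixture varied between pools. Summed over 4 Y-linked genes, the level was 139, 53.0 and 144 CPM against 215, 87.9 and 220 CPM in the wt pools. The part of this mixture in the value of Mbtps2 was not tested. Creb3l1, which encodes OASIS, an ATF6-like factor of secretory cells, had 16.4, 17.3 and 13.0 CPM against 9.15, 9.83 and 6.56 CPM in the wt pools. Its pools did not overlap, but it missed the threshold, its log2 fold change being 0.88 (edgeR adjusted p = 0.0672). DESeq2 called it (adjusted p = 0.0022), as did edgeR without the muscle-rich pools (log2 fold change 1.10, adjusted p = 0.0422). Of the 12 alternatives other than single pools left out, only these 2 called it, and the GC correction gave an edgeR adjusted p of 0.111. Leaving out single pools called it in 0 of 6 fits (edgeR adjusted p from 0.0602 to 0.301). Likewise the PERK gene Eif2ak3 had 59.8, 57.5 and 56.7 CPM against 75.5, 67.7 and 89.1 CPM in the wt pools (log2 fold change -0.42, edgeR adjusted p = 0.125), and Atf6b, the paralog of Atf6, a log2 fold change of 0.46 (adjusted p = 0.0834). The list as a whole was balanced, with 6 positive and 6 negative estimates and a median log2 fold change of -0.016. At an unadjusted edgeR p under 0.05 there were 2 higher and 2 lower, against 8.57% and 8.21% of all genes tested.

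The ER chaperones and folding enzymes lay to the higher side. Of 26 genes, 21 had a positive log2 fold change, against 49.3% of all tested genes, and the median was 0.32 beside -0.0059 for all genes. Even so, 0 of 26 passed the edgeR adjusted threshold, the lowest adjusted p being 0.0762. At an unadjusted p under 0.05 there were 7 higher and 1 lower, against 8.57% and 8.21% of all genes tested. The pools labelled Rbm47-IKO lay wholly above the wt pools for 9 of the 26, against 11.7% of all genes, and wholly below for 1. DESeq2 called 6, namely Pdia3, Hyou1, Manf, Dnajc10 and Ero1l higher and Ero1lb lower, against 8.39% of all genes given an adjusted p by that tool, while limma-voom called 0. The 2 paralogs of the ER oxidase ERO1 had opposite signs. Ero1l had 76.6, 74.7 and 59.1 CPM against 40.0, 42.8 and 53.1 CPM in the wt pools (log2 fold change 0.63, edgeR adjusted p = 0.0762). Ero1lb, the form best known from secretory cells of the pancreas and stomach, had 17.6, 19.1 and 17.3 CPM against 24.2, 24.9 and 34.4 CPM (log2 fold change -0.63, edgeR adjusted p = 0.0893). Manf, a secreted protein of the stressed ER, had 79.3, 82.0 and 58.3 CPM against 54.1, 55.0 and 36.0 CPM (log2 fold change 0.60, edgeR adjusted p = 0.178). Hspa5 and Hsp90b1, the most abundant chaperones among the 10 genes, were not part of this list, and their estimates of 0.16 and -0.12 lie below its median.

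The list's median stayed positive when any single pool was left out, at 0.23 to 0.39, and was 0.28 with the GC correction. Rbm47-IKO pool 3 was the lowest of its genotype for 23 of the 26 and wt pool 3 for 18 of the 26, and without the muscle-rich pools the median was 0.41. Of the 11 lists of cell type markers, 3 had summed levels that separated the genotypes, namely the enterocyte genes given above, through Apob, goblet cell genes and enteroendocrine genes. Among single genes, 23.3% of all tested had pools that did not overlap. Summed over 8 goblet cell genes, the level was 22164 to 25638 CPM in the pools labelled Rbm47-IKO and 16603 to 19465 CPM in the wt pools, with 7 of 8 estimates positive and 2 at an unadjusted edgeR p under 0.05, against 49.3% and 16.8% of all genes tested. Most of this sum was Fcgbp, at 13498.5 to 15215.2 CPM against 10373.6 to 12087.1 CPM in the wt pools. Fcgbp and Clca1 were the 2 of these 8 genes whose pools did not overlap, both higher, against 11.7% higher and 11.6% lower of all genes tested. For the others, the defining mucin gene Muc2 among them, the pools overlapped. The 7 enteroendocrine genes summed to 117 to 129 CPM against 156 to 201 CPM, with 7 negative estimates. Of these Ghrl, the ghrelin gene, fell by 1.44 on the log2 scale (edgeR adjusted p = 0.0393), and the hormone genes Cck and Gip had log2 fold changes of -1.24 and -0.76 (adjusted p = 0.101 and 0.0870). The other secretory lists had overlapping sums. The 8 Paneth cell genes summed to 566 to 1040 CPM against 556 to 2093 CPM, with 8 negative estimates, and the 9 plasma and B cell genes to 382 to 683 CPM against 608 to 1058 CPM, with 9 negative. The part of goblet, enterocyte or enteroendocrine RNA in the chaperone values was not tested.

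In ER-associated degradation, by which misfolded proteins are returned to the cytosol for the proteasome, the median log2 fold change was 0.11. The estimate was positive for 14 of 20 genes, against 49.3% of all genes tested. With single pools left out the median ran from 0.033 (without wt pool 1) to 0.17 (without Rbm47-IKO pool 3). Upper-quartile scaling left 11 of 20 positive. By edgeR and DESeq2 0 were called, with 4 at an unadjusted edgeR p under 0.05, a share near the 16.8% of all genes tested. Edem1, a mannosidase-like lectin that takes glycoproteins out of folding, had 271, 275 and 232 CPM against 316, 291 and 359 CPM in the wt pools (log2 fold change -0.31, edgeR adjusted p = 0.273). The lectin gene Os9 had 365, 378 and 347 CPM against 273, 286 and 336 CPM (log2 fold change 0.28, edgeR adjusted p = 0.284). Ube2g2, a ubiquitin-conjugating enzyme of the pathway, had an estimate of 0.38 on the log2 scale (edgeR adjusted p = 0.277).

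Of 24 genes of the translocon and of ER export, the type that XBP1 governs in secretory cells, 23 were tested. The estimate was positive for 16, with a median log2 fold change of 0.12, and 0 were called by edgeR. Single pools left out moved this median between 0.045 (without Rbm47-IKO pool 2) and 0.23 (without Rbm47-IKO pool 3). At an unadjusted p under 0.05 there were 4 of 23, a share near the 16.8% of all genes. Sec24d, a coat protein of vesicles leaving the ER and the single gene of the list that DESeq2 called, had 224, 252 and 237 CPM against 289, 338 and 412 CPM in the wt pools (log2 fold change -0.54, edgeR adjusted p = 0.107). Sec61a1, the channel of the translocon, had 372, 361 and 315 CPM against 268, 273 and 300 CPM (log2 fold change 0.32, edgeR adjusted p = 0.211). Kdelr2, a receptor that returns ER residents from the Golgi, had an estimate of 0.31 on the log2 scale (edgeR adjusted p = 0.312).

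The arm of PERK, ATF4 and the integrated stress response held both genes called higher. Of 28 genes, 18 had positive estimates, against 49.3% of all genes tested, and the median log2 fold change was 0.18. Leaving out single pools moved this median between 0.10 (without Rbm47-IKO pool 2) and 0.25 (without Rbm47-IKO pool 3). Without the muscle-rich pools it was 0.27. At an unadjusted edgeR p under 0.05 there were 7 higher and 2 lower, against 8.57% and 8.21% of all genes. Slc3a2, the heavy chain shared by several amino acid transporters, rose to 550, 619 and 567 CPM from 326, 358 and 383 CPM in the wt pools (log2 fold change 0.70, SE 0.115, edgeR adjusted p = 0.0264). Sesn2, a stress-induced inhibitor of mTORC1 signalling, rose to 13.6, 16.4 and 13.1 CPM from 8.44, 8.80 and 8.67 CPM (log2 fold change 0.74, SE 0.142, edgeR adjusted p = 0.0430). For both, all pools labelled Rbm47-IKO lay above all wt pools. The call of Sesn2 was lost when any single pool was left out (adjusted p from 0.0646 to 0.255), and that of Slc3a2 was kept only without wt pool 2 (0.0469 to 0.188). Both were lost with the GC correction (0.100 and 0.0593) and without the muscle-rich pools (0.0665 and 0.0783). The log2 fold changes in these 2 fits were 0.59 and 0.80 for Sesn2 and 0.63 and 0.71 for Slc3a2. Chac1, a glutathione-degrading enzyme induced through ATF4 and CHOP, had 4.53, 7.34 and 4.35 CPM against 3.82, 0.870 and 1.62 CPM (log2 fold change 1.37, SE 0.510, edgeR adjusted p = 0.237). Its estimate ran from 0.997 without wt pool 2 to 2.12 without wt pool 1. Slc7a5, the light chain that pairs with Slc3a2, had an estimate of 0.61 on the log2 scale (edgeR adjusted p = 0.252), and Ero1l, also counted in this list, is given with the chaperones. Atf4 and Ddit3, the factors that head this arm, had estimates of -0.0090 and 0.05.

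Among 12 genes of ER stress and cell death, 7 had positive estimates, with a median log2 fold change of 0.08, and 0 were called by edgeR. The sign of this median turned without Rbm47-IKO pool 3 (-0.049), without wt pool 3 (-0.016) and without the muscle-rich pools (-0.034). At an unadjusted p under 0.05 there were 2 of 12, a share near the 16.8% of all genes. DESeq2 called the same 2, against 8.39% of the genes to which it gave an adjusted p. Tnfrsf10b, the death receptor DR5 that CHOP induces, had 9.10, 10.1 and 9.89 CPM against 5.38, 6.98 and 6.17 CPM in the wt pools (log2 fold change 0.65, edgeR adjusted p = 0.0900). Bax, a pore-forming member of the BCL2 family, had 19.6, 23.9 and 20.3 CPM against 12.5, 15.5 and 14.5 CPM (log2 fold change 0.59, edgeR adjusted p = 0.0740). The anti-apoptotic Mcl1 had an estimate of -0.20 on the log2 scale (edgeR adjusted p = 0.403).

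**Figure D4:**
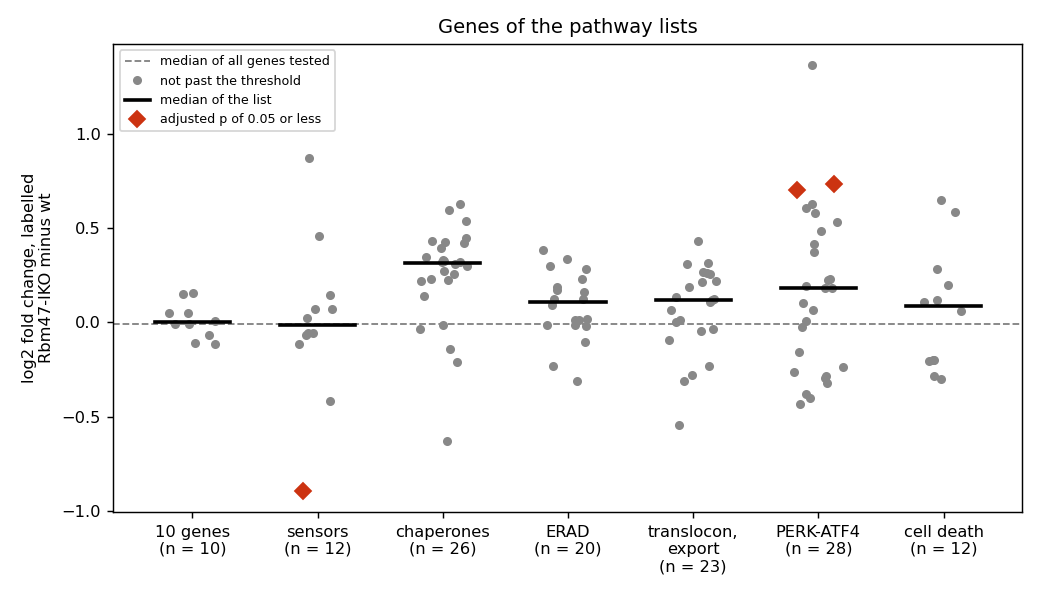
Log2 fold change of single genes (points, vertical axis) in the 10 genes and in the 6 lists of the wider pathway, with black lines for list medians and a dashed line for the median of all genes tested. Red diamonds mark the 3 genes at an adjusted p of 0.05 or less, and the chaperones have the highest median, 0.32.

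The promoter motifs printed above were also set beside the fold changes. Of the 26 chaperones and folding enzymes, 22 had a promoter window, and 6 of these held an ERSE, against 37 of all 27025 genes with a window. These were Calr (log2 fold change 0.32), Canx (0.30), Pdia6 (0.43), Creld2 (0.14), Dnajc3 (-0.21) and Ero1lb (-0.63), which RefSeq lists as Ero1b. In the degradation list Syvn1 (0.30) and Derl3 (-0.01) held one. Of these 8, 0 passed the edgeR adjusted threshold, 2 had an unadjusted p under 0.05 (Canx and Ero1lb), and DESeq2 called 1 (Ero1lb), against 2.7%, 16.8% and 8.39% of all genes. Windows were matched to all tested genes by their symbol, so that Ero1lb is not in the next count. Over the 18 tested genes with an ERSE, 10 had positive estimates, against 49.3% of all genes tested, and the median log2 fold change was 0.06 beside 0.0038 for genes whose window held none. Of these 18, 2 had an unadjusted edgeR p under 0.05 (Xlr3a and Canx, both higher, adjusted p = 0.101 and 0.275), against 16.8% of all genes tested. The 2 shares were not compared by a test. The 8 tested genes with an ERSE-II, Herpud1 among them, had a median log2 fold change of 0.22 beside 0.0037 without it. By edgeR 0 of these 8 were called, against 2.7% of all genes tested, and 3 had an unadjusted p under 0.05, against 16.8%. For the 362 tested genes with the TGACGTG core the median was 0.02, with 4 called higher and 4 lower (2.21%, against 2.7% of all genes tested). Among the 89 tested genes with the ATF4-type element the median log2 fold change was -0.0072, with 2 called higher and 2 lower (4.49% in all, against 2.7% of all genes tested).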

How the data were processed

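RNA of small intestinal mucosa was analysed in 6 libraries, 3 pools per genotype, grouped by the genotype in the labels. Per the labels' processing notes, reads were aligned with STAR 2.5.1a to GRCm38 and counted per Ensembl gene with featureCounts 1.4.6-p5 of the Subread package. The strand setting is not given in the sources used here. The deposited tables hold whole read counts, and these were the values analysed. The deposited CPM column scales each count to its column total, and the deposited RPKM column divides the CPM by the length of the gene in kilobases. Neither was used for a test.

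Symbols came from GENCODE M21. Genes without one, kept under their Ensembl IDs, held 0.369% of the counts. Counts were filtered with filterByExpr, scaled by TMM and tested in edgeR 4.0.16 with the quasi-likelihood test, and p was adjusted over all 16425 tested genes by the Benjamini-Hochberg method with a threshold of 0.05. CPM in the text uses TMM library sizes. Alternatives used DESeq2 1.42.0, limma-voom (limma 3.58.1), RLE, upper-quartile or plain library-size scaling, 2 other filters, a robust fit, a replicate block, removal of immunoglobulin genes and each pool left out in turn. Added after the data were seen were an offset for GC content (lowess, span 0.3) and a fit without Rbm47-IKO pool 3 and wt pool 2. R 4.3.3 and Python 3.11.15 were used, and the fit was tested on simulated data.

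The 10 genes and the pathway and marker lists were chosen with earlier results of these data known. Beyond the 10, the genes named from a pathway list were those past the threshold and up to 3 with the largest fold change among those whose pools did not overlap. The ERSE genes and the genes listed for DESeq2 were named after their values were seen. Pools come from separate mice. Reads are not independent molecules, and the depth of 31560320 to 38951830 counts limits counting error only.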

Additional observations from a re-analysis of the deposited data

How the results depend on the processing

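Of the 10 genes, 0 were called under any of the 18 alternatives, with a lowest adjusted p of 0.369 and log2 fold changes between -0.28 and 0.30. The sign turned in 21 of 180 results, in 7 genes. With the GC offset these were Hsp90b1 (0.0265), Ern1 (-0.0059), Dnajb9 (0.0523) and Herpud1 (-0.0091). Without the muscle-rich pools they were Xbp1 (0.12), Ern1 (-0.0398) and Atf4 (0.0269). With genes kept from 1 count on they were Xbp1 (0.0034) and Atf4 (0.0011), and Ern1 turned with upper-quartile scaling (-0.0277) and with library size only (-0.0026). Leaving out single pools gave ranges of -0.0752 to 0.0731 for Xbp1, -0.0842 to 0.162 for Ern1, -0.0834 to 0.0899 for Atf4, -0.154 to 0.0682 for Atf6, -0.282 to 0.0559 for Dnajb9 and -0.0092 to 0.17 for Herpud1. Without a turn in these fits, Hspa5 ran from 0.0102 to 0.268 and Hsp90b1 from -0.220 to -0.0098. Ern2 ran from 0.0456 to 0.294 and Ddit3 from 0.0040 to 0.0813. The cause of the turns was not tested.

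Counts over all genes depended more on the processing. Against 443 called genes (238 higher, 205 lower), DESeq2 called 1243 (667 and 576) and the GC offset left 266 (152 and 114). Leaving out single pools gave 0 to 431 genes (0 to 220 higher and 0 to 211 lower), with 0 without Rbm47-IKO pool 2, where 1729 genes had an unadjusted edgeR p under 0.05, 11 without wt pool 3, 32 without Rbm47-IKO pool 1 and 119 without Rbm47-IKO pool 3. Over the lists, DESeq2 called 3 of 12 sensors, 6 of 26 chaperones, 0 of 20 degradation genes and 1 of 23 translocon genes. It also called 4 of 28 genes of the PERK and ATF4 arm and 2 of 12 cell death genes. Among all genes to which DESeq2 gave an adjusted p, 8.39% were called. Library size only called 1 chaperone (Ero1l). In the PERK and ATF4 arm the 1-count filter left 1 call (Slc3a2), the GC offset 0 and the fit without the muscle-rich pools 1 (Cebpb). The GC offset left 0 sensors. Single pools left out gave 0 to 1 sensors and 0 to 2 genes of the PERK and ATF4 arm. Same-numbered pools were not paired, since their deviations from the group means correlated at 0.41, -0.0026 and -0.28 for numbers 1, 2 and 3, and not every pool correlated best with its own number. With the replicate block 100 genes were called (63 higher, 37 lower), with 0 sensors and 0 genes of the PERK and ATF4 arm among them. Mbtps2, Sesn2 and Slc3a2 then had adjusted p of 0.0821, 0.0877 and 0.0877.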
